A study of Mus musculus with 21 samples.

Results

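Gas5, growth arrest specific 5, is a long non-coding RNA gene whose introns carry small nucleolar RNAs. It was examined here as 1 region of the plus strand of chromosome 1, from 162963500 to 162970711 of mouse build mm9, in maps of RNA bound by the splicing factors SRSF7 and SRSF3. The region was fixed by its coordinates, and every listed position inside it was taken. The lists held 660 distinct positions there, counted 1467 times over 6 lists, with 15888 of 3232078 cDNAs in all. The minus strand of the same interval had 0 listed positions in each of the 6 lists.

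Gas5 is spliced from many short exons, and the exons code for no known long protein. Its box C/D small nucleolar RNAs are cut out of the introns after splicing and guide ribose methylation of ribosomal RNA. The spliced RNA starts with a terminal oligopyrimidine tract, is loaded on ribosomes, and is then broken down by nonsense-mediated decay in growing cells. SRSF7 and SRSF3 are serine/arginine-rich proteins that bind exons and introns of nascent transcripts, act in splicing, and shuttle between nucleus and cytoplasm with mRNA.

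The cells were P19, a mouse embryonal carcinoma line, expressing either SRSF7-GFP or SRSF3-GFP, and the labels do not say how the fusion was introduced or at what level it was made. They were irradiated at 254 nm with 100 mJ/cm2, which links protein to RNA, and were fractionated before individual-nucleotide crosslinking and immunoprecipitation (iCLIP), a method that reads the bound nucleotide from where a cDNA stopped. SRSF7 was mapped in nucleoplasm, chromatin and cytoplasm with 3 replicates each, and SRSF3 in the same fractions with 4 each. Replicates were pooled by the authors into 1 list for each group, so there are 6 lists and no replicate spread, and no p-value is given.

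The lists held between 248498 cDNAs in SRSF7 chromatin and 1768665 in SRSF3 chromatin. Each value is a count of cDNAs at a position that passed the authors' threshold, so absence of a nucleotide says only that it did not pass, not that no protein was there. No sample without a tagged protein and no measure of RNA amount was used here, so more Gas5 RNA in a fraction and more protein per Gas5 RNA cannot be told apart. Intervals given with shares and ratios are exact 95% binomial intervals and cover counting error only. The gene table at hand, of another build (GRCm38.p6), names Gas5 as gene 14455, a lncRNA, and lists 8 snoRNA genes inside it, of 60 to 83 nt, 1 of them called Snord47. With no annotation of mm9, no cluster below is assigned to an exon, an intron or a snoRNA.

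Gas5 took its largest share of cDNAs in SRSF7 nucleoplasm and its smallest in the cytoplasm of both proteins. In SRSF7 nucleoplasm 4127 cDNAs over 352 positions lay in the region, 1.5% of the list (1.46 to 1.55). SRSF7 chromatin had 1842 cDNAs over 213 positions, 0.741% (0.708 to 0.776), and SRSF7 cytoplasm had 223 over 92 positions, 0.0607% (0.0530 to 0.0692). For SRSF3, nucleoplasm had 1709 cDNAs over 235 positions, 0.542% (0.516 to 0.568). SRSF3 chromatin had the most cDNAs in absolute number, 7813 over 508 positions, but in the longest list, which made a share of 0.442% (0.432 to 0.452). SRSF3 cytoplasm had 174 over 67 positions, 0.0677% (0.0580 to 0.0785). By share of cDNAs the 4 nuclear lists thus lay far above both cytoplasmic lists, with no overlap of intervals. By share of listed positions, SRSF3 chromatin, at 0.0584%, lay below the cytoplasm of SRSF7, at 0.0646%, and of SRSF3, at 0.114%. The other nuclear lists, from 0.215% to 0.280%, lay above both. With positions of at least 3 cDNAs the share was 2.86% in SRSF7 nucleoplasm, and SRSF3 chromatin, at 0.892%, lay above SRSF3 nucleoplasm, at 0.762%.

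**Figure D1:**
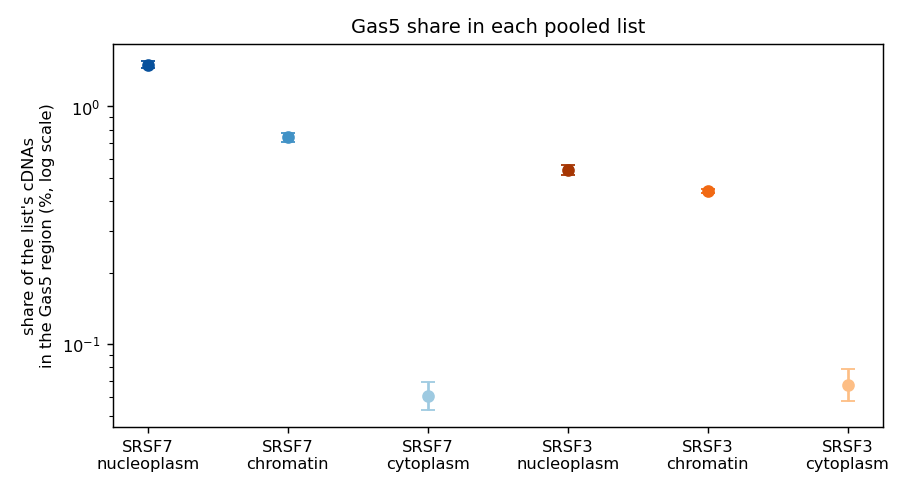
Share of each pooled list's cDNAs that lay in the Gas5 region, in percent on a log axis, with exact 95% intervals for counting error. SRSF7 nucleoplasm was the highest at 1.5%, and the 2 cytoplasm lists lay lowest, at 0.0607% for SRSF7 and 0.0677% for SRSF3.

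Positions of all 6 lists lying no more than 10000 nt apart on the same strand were joined into loci. Among these, Gas5 ranked 5 in SRSF7 nucleoplasm, 14 in SRSF7 chromatin and 184 in SRSF7 cytoplasm. Its rank was 12 in SRSF3 nucleoplasm, 13 in SRSF3 chromatin and 124 in SRSF3 cytoplasm. The lists counted between 8267 and 18230 loci. Gas5 was therefore among the leading RNAs of all 4 nuclear lists and well down both cytoplasmic ones.

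The first comparison is between fractions of 1 protein. The Gas5 share in SRSF7 nucleoplasm was 24.7-fold that in SRSF7 cytoplasm (21.6 to 28.4). A locus was called when the whole interval lay beyond 2-fold, among loci whose summed count over the pair of lists was 50 or more, with no list under 10. Of the 1248 loci compared, 22.6% were called higher in nucleoplasm, and only 4 had a higher ratio than Gas5. SRSF7 chromatin over cytoplasm was 12.2-fold (10.6 to 14.1), where 22.3% of 852 loci were called higher and 40 had a higher ratio than Gas5. Both calls held in every alternative tried, but their size did not. Nucleoplasm over cytoplasm was 4.17-fold when positions were counted and 44.5-fold with positions of at least 3 cDNAs, and chromatin over cytoplasm was 4.33-fold when positions were counted.

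In SRSF3 the same contrasts were smaller. Nucleoplasm over cytoplasm was 8.0-fold (6.84 to 9.41), with 16.8% of 921 loci called higher and 26 above Gas5. Chromatin over cytoplasm was 6.53-fold (5.62 to 7.63), with 20.8% of 1050 loci called higher and 99 above Gas5. The median locus of that comparison had a log2 ratio of -0.74, so Gas5 ran against the general direction of the SRSF3 lists. With positions counted in place of cDNAs, SRSF3 nucleoplasm over cytoplasm was 1.88 and lost its call, and chromatin over cytoplasm turned to 0.511. With positions of at least 3 cDNAs these ratios were 12.7 and 14.9.

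Nucleoplasm and chromatin were closer to each other. The SRSF7 ratio was 2.02 (1.92 to 2.14), not past the call at 2-fold, where 21.5% of 915 loci were called higher. The SRSF3 ratio was 1.23 (1.16 to 1.29), where 31.6% of 1778 loci were called higher. Gas5 lay near the middle of both distributions, with 365 loci above it in SRSF7 and 915 in SRSF3. Neither direction held in every setting. The SRSF7 ratio was 0.963 when positions were counted, with an interval that includes 1 (0.810 to 1.15). The SRSF3 ratio was 0.855 (0.809 to 0.903) when positions under 3 cDNAs were left out.

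With cDNAs counted as deposited, the fraction ratios also differed between the proteins beyond counting error. The nucleoplasm to cytoplasm ratio of SRSF7 was 3.09 times that of SRSF3 (2.51 to 3.8, 95% normal interval on the log scale). For chromatin over cytoplasm this factor was 1.87 (1.52 to 2.30), and for nucleoplasm over chromatin it was 1.65 (1.53 to 1.78). The last 2 factors depended on the setting. Nucleoplasm over chromatin was 1.71 for SRSF7 and 1.58 for SRSF3 without the mitochondrial genome and the 10 highest other loci, and 0.963 and 3.68 when positions were counted. Chromatin over cytoplasm was 15.4 for SRSF7 and 14.9 for SRSF3 with positions of at least 3 cDNAs. Replicates were pooled, so none of these differences could be set against replicate spread. Mitochondrial RNA, which marks cytoplasm, moved with the fractions too. Its share was 1.44% in nucleoplasm, 0.322% in chromatin and 8.89% in cytoplasm for SRSF7, and 9.79%, 0.196% and 16.7% of the SRSF3 lists in the same order. By this mark SRSF3 nucleoplasm stood above SRSF7 cytoplasm, and whether fractions of the 2 proteins were alike was not tested. With the mitochondrial genome and the 10 highest other loci out of the totals, nucleoplasm over cytoplasm was 19.7-fold for SRSF7 and 6.36-fold for SRSF3.

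The second comparison sets SRSF7 against SRSF3 in the same fraction. In nucleoplasm the SRSF7 share was 2.77-fold the SRSF3 share (2.62 to 2.93), where 18.3% of 1093 loci were called higher in SRSF7 and 211 had a higher ratio than Gas5. In chromatin the ratio was 1.68 (1.59 to 1.77), short of the call, where 17.2% of 1358 loci were called higher. In cytoplasm it was 0.897 (0.732 to 1.10), an interval that includes 1, where 14% of 866 loci were called lower. By cDNAs the ratio was thus highest in nucleoplasm, and by positions it was highest in chromatin, at 4.79 against 1.25 in nucleoplasm, where the call was lost. The chromatin ratio passed 2-fold, at 2.15, without the mitochondrial genome and the 10 highest other loci. In that setting the nucleoplasm ratio was 2.33 (2.20 to 2.46). The mitochondrial share was 1.44% in SRSF7 nucleoplasm and 9.79% in SRSF3 nucleoplasm, so the 2 lists compared there differed in this mark.

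**Figure D2:**
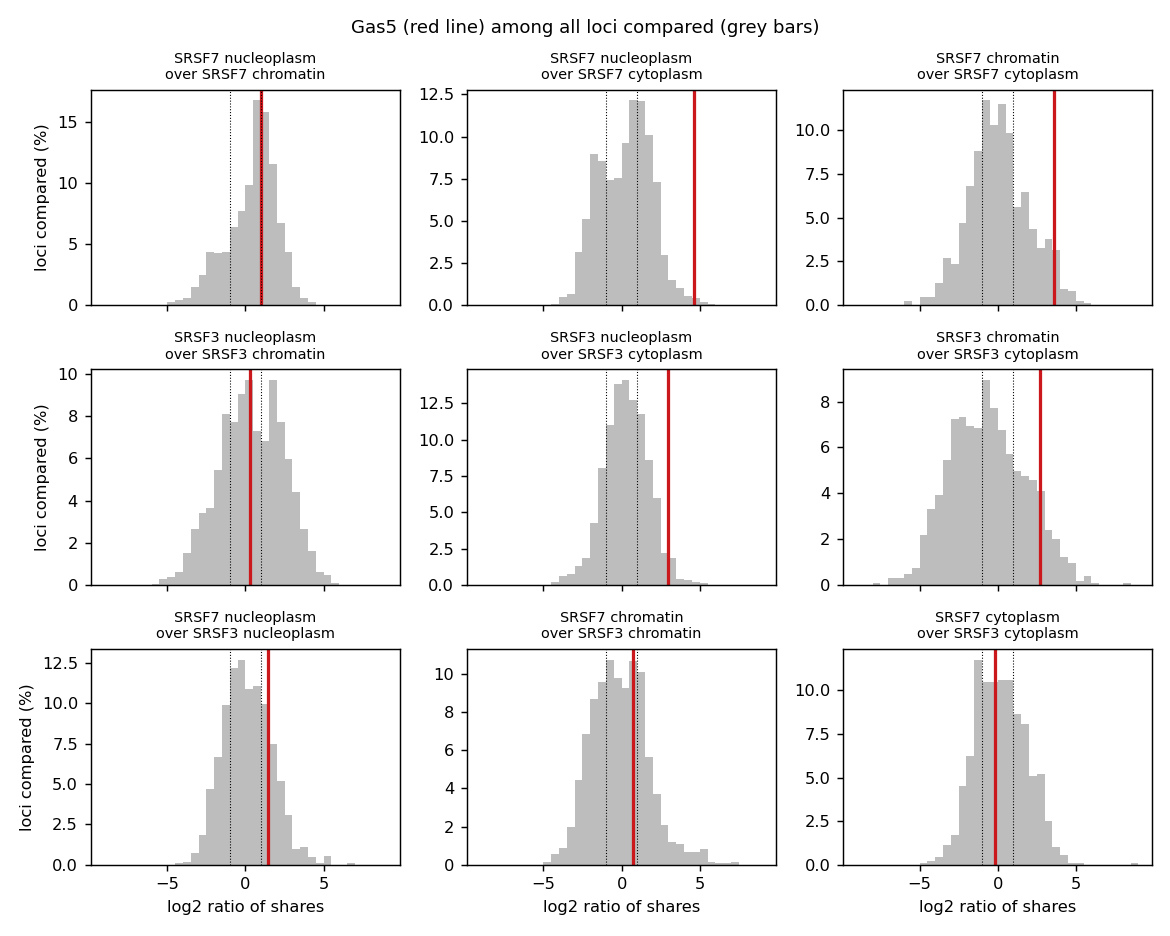
Log2 ratio of shares for all loci compared (grey bars, percent of loci in bins of 0.5) and for Gas5 (red line) in the 9 comparisons, with dotted lines at 2-fold in either direction. Gas5 stands near the upper end where nucleoplasm is set over cytoplasm (24.7-fold in SRSF7, 8.0-fold in SRSF3), and near the middle where nucleoplasm is set over chromatin.

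Along the gene the cDNAs formed short stacks with long stretches of few or no cDNAs between them. Joining the positions of all 6 lists at gaps of up to 30 nt gave 32 clusters. Of these, 9 held at least 5% of the region's cDNAs in at least 1 list, and they are called A to I from upstream to downstream. Together they covered 540 nt, 9.99% of the 5407 nt between the outermost listed positions. They held 95.1%, 98.2% and 91.9% of the region's cDNAs in SRSF7 nucleoplasm, chromatin and cytoplasm, and 97.2%, 93.6% and 100% in SRSF3 nucleoplasm, chromatin and cytoplasm.

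On mm9 chromosome 1, cluster A lay at 162965532 to 162965567, B at 162965874 to 162965923, and C at 162965965 to 162966015. D lay at 162966192 to 162966232 and E at 162966331 to 162966415. F was at 162967496 to 162967543, G at 162967721 to 162967781, H at 162968195 to 162968315, and I at 162968441 to 162968487. Most were narrow, between 36 and 61 nt, while E spanned 85 nt and H 121 nt. The stretches between neighbouring named clusters ran from 41 nt between B and C to 1080 nt between E and F.

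**Figure D3:**
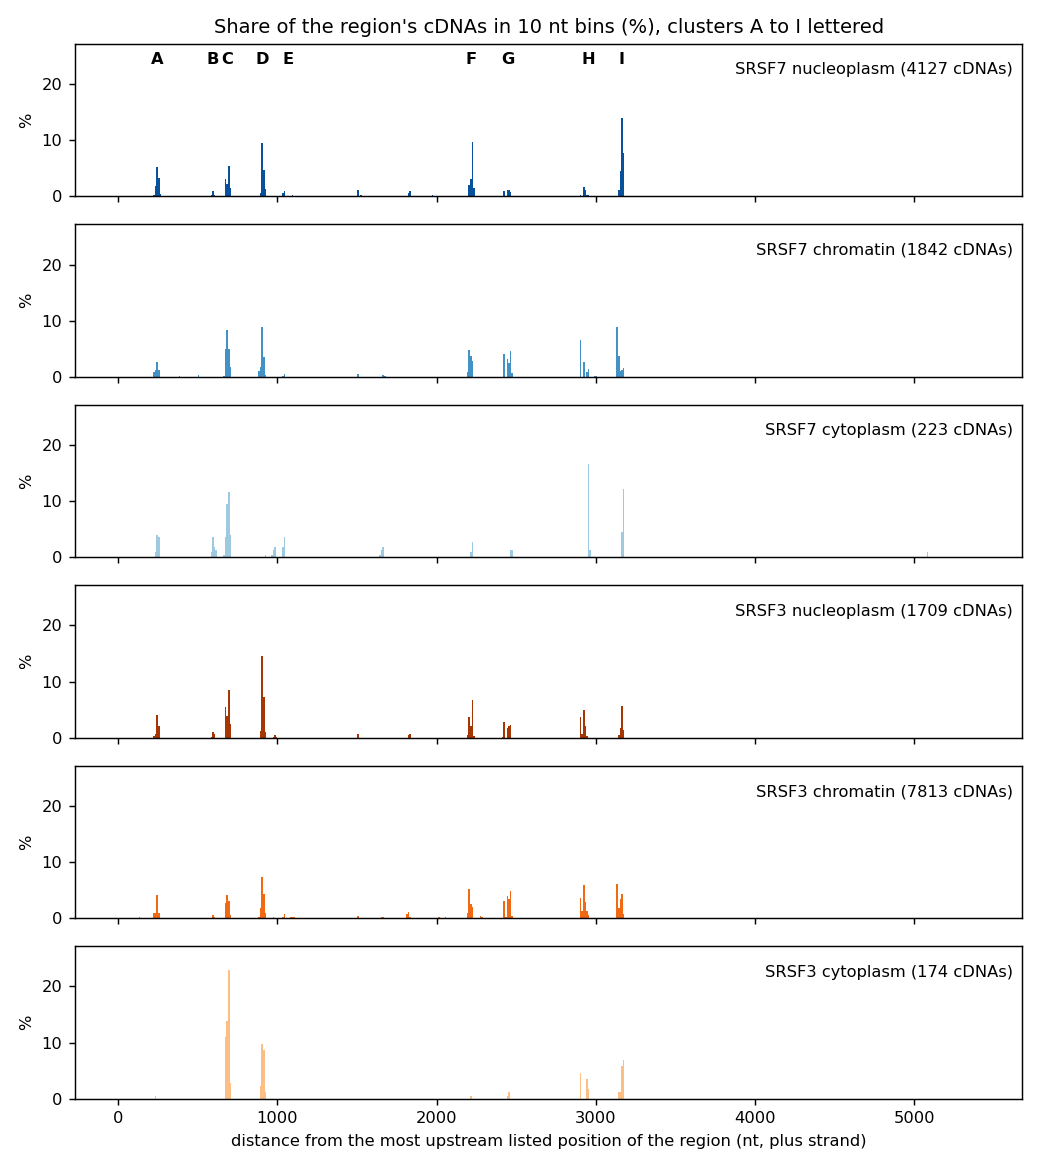
Share of the Gas5 region's cDNAs in 10 nt bins, in percent, for the 6 lists, against the distance in nt from the most upstream listed position, with clusters A to I lettered above. All lettered clusters except B and E carry cDNAs in all 6 lists, cluster I is tallest in SRSF7 nucleoplasm, and cluster C is tallest in SRSF3 cytoplasm.

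Over the region, the cDNAs were spread over many nucleotides rather than held at 1 of them. Single stacks could be narrower. Nucleotide 15 of cluster E held 39 of its 87 cDNAs in SRSF7 nucleoplasm and 50 of 140 in SRSF3 chromatin. The tallest single nucleotide carried 3.46% of the region's cDNAs in SRSF7 nucleoplasm, 4.72% in SRSF7 chromatin and 5.38% in SRSF7 cytoplasm. In SRSF3 it carried 3.63% in nucleoplasm, 2.05% in chromatin and 8.62% in cytoplasm. The 10 tallest nucleotides together held between 16.7% in SRSF3 chromatin and 43.1% in SRSF3 cytoplasm. Cytoplasm had the fewest cDNAs and the most concentrated profile of each protein. At an equal depth of 174 cDNAs the expected number of occupied nucleotides was 95.4 in SRSF7 nucleoplasm, 83.2 in SRSF7 chromatin and 79.9 in SRSF7 cytoplasm. For SRSF3 it was 93.2 in nucleoplasm, 107.6 in chromatin and 67 in cytoplasm. Each cytoplasm list thus stayed below both nuclear lists of its protein at equal depth, by a small margin for SRSF7.

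Heights per listed position were large in the nuclear lists. The mean was 11.7 cDNAs in SRSF7 nucleoplasm, 8.65 in SRSF7 chromatin, 7.27 in SRSF3 nucleoplasm and 15.4 in SRSF3 chromatin. The means of the whole lists were 2.10, 3.26, 2.88 and 2.03 in that order. In cytoplasm the Gas5 means were lower than those of the lists, with 2.42 against 2.58 for SRSF7 and 2.60 against 4.38 for SRSF3. Single-cDNA positions made up between 25.6% and 30.1% of Gas5 positions in the nuclear lists, and 55.4% and 49.3% in SRSF7 and SRSF3 cytoplasm. Single-cDNA positions were still more frequent in the whole cytoplasmic lists, at 71.6% for SRSF7 and 61.1% for SRSF3. Gas5 positions were thus taller on average in the nuclear lists than in the cytoplasmic ones, but mean height depends on the number of cDNAs. At the equal depth of 174 cDNAs each cytoplasm list occupied fewer nucleotides than the nuclear lists of its protein. Its expected cDNAs per occupied nucleotide were then higher, so the difference in height is not separate from depth. Of loci with at least 200 cDNAs, 57.3% had a lower mean height than Gas5 in SRSF7 cytoplasm and 13.6% in SRSF3 cytoplasm. In the nuclear lists this percentage ran from 62.1% in SRSF7 chromatin to 95.4% in SRSF3 chromatin.

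The chance that 2 cDNAs drawn from the region share a nucleotide put Gas5 among other loci. It was 1.04% in SRSF7 nucleoplasm, 1.54% in SRSF7 chromatin and 1.72% in SRSF7 cytoplasm, and 1.07%, 0.745% and 2.49% in SRSF3 in the same order. With positions of at least 3 cDNAs it was 4.21% in SRSF7 cytoplasm and 5.03% in SRSF3 cytoplasm. Of loci with at least 200 cDNAs in a list, 50% were more spread than Gas5 in SRSF7 nucleoplasm, 28.1% in SRSF7 chromatin and 61.6% in SRSF7 cytoplasm. For SRSF3 the values were 30.2%, 79.4% and 24.5%. By this measure Gas5 stood at neither end of the distribution in any of the 6 lists.

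The clusters did not carry equal weight in the 6 lists. Cluster I, the most downstream, held 27.5% of Gas5 cDNAs in SRSF7 nucleoplasm (1134 of 4127, interval 26.1 to 28.9) and 16.5% in SRSF7 chromatin (14.8 to 18.3). In SRSF7 cytoplasm it held 16.6% (12 to 22.1). In SRSF3 its share ran the other way, with 9.30% in nucleoplasm (7.97 to 10.8) against 16.4% in chromatin (15.6 to 17.3), and 14.9% in cytoplasm (10.0 to 21.1). As a share of the whole list, cluster I was 8.18-fold higher in SRSF7 nucleoplasm than in SRSF3 nucleoplasm (6.93 to 9.72), the highest such ratio among the 8 clusters compared.

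Cluster C was the main cytoplasmic stack. It held 50.6% of Gas5 cDNAs in SRSF3 cytoplasm (88 of 174, interval 42.9 to 58.2) and 29.1% in SRSF7 cytoplasm (65 of 223, 23.3 to 35.6). In nucleoplasm its share was 12.4% for SRSF7 (11.4 to 13.4) and 20.4% for SRSF3 (18.5 to 22.4). In chromatin it was 20.0% for SRSF7 (18.2 to 21.9) and 10.6% for SRSF3 (9.90 to 11.3). As a share of the region, cytoplasm lay above both nuclear fractions in each protein, without overlap of the intervals. By share of the list, C was higher in the nuclear lists than in cytoplasm of the same protein. For SRSF7 it was 10.5-fold higher in nucleoplasm (8.10 to 13.8) and 8.39-fold in chromatin (6.43 to 11.1). For SRSF3 it was 3.22-fold higher in nucleoplasm (2.54 to 4.12). In SRSF3 chromatin C was 1.36-fold higher than in SRSF3 cytoplasm (1.09 to 1.72), while the whole region was 6.53-fold higher.

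Cluster D was strong in both nuclear fractions, with 16.2% in SRSF7 nucleoplasm (15.1 to 17.4), 15.5% in SRSF7 chromatin (13.9 to 17.3), 24.1% in SRSF3 nucleoplasm (22.1 to 26.2) and 14.7% in SRSF3 chromatin (13.9 to 15.5). The cytoplasmic lists parted here, with 1 of 223 cDNAs in SRSF7 cytoplasm and 38 of 174, or 21.8%, in SRSF3 cytoplasm. Cluster A weighed little in SRSF3 cytoplasm, but in SRSF7 cytoplasm its interval (5.21 to 13.0) took in the values of both nuclear fractions. It held 11%, 6.24% and 8.52% in SRSF7 nucleoplasm, chromatin and cytoplasm. In SRSF3 it held 7.31% in nucleoplasm, 7.01% in chromatin and 1 of 174 cDNAs in cytoplasm. F held 16.3%, 12.2% and 3.59% in SRSF7 nucleoplasm, chromatin and cytoplasm, against 13.5%, 10.8% and 0.575% in the same SRSF3 fractions.

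Clusters G and H weighed more in chromatin than in nucleoplasm for both proteins. G held 4.12% in SRSF7 nucleoplasm (3.53 to 4.77) against 15.1% in SRSF7 chromatin (13.5 to 16.8), and 9.07% in SRSF3 nucleoplasm (7.75 to 10.5) against 15.9% in SRSF3 chromatin (15.1 to 16.7). H held 3.78% in SRSF7 nucleoplasm (3.22 to 4.41) against 11.8% in SRSF7 chromatin (10.4 to 13.4). For SRSF3, H held 11.6% in nucleoplasm (10.2 to 13.3) against 15.5% in chromatin (14.7 to 16.3). The small clusters B and E never passed 7.62% and 5.38%, both reached in SRSF7 cytoplasm. They met the 5% needed for a letter in that list alone, with 17 and 12 cDNAs, so their high share there follows from that rule. Elsewhere B held at most 1.87% and E at most 2.11%. B was missing from the lists of SRSF7 chromatin and SRSF3 cytoplasm, and E from those of SRSF3 nucleoplasm and SRSF3 cytoplasm.

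By the call on the share of the list, 4 of 8 clusters compared (A, E, F and I) were higher in SRSF7 nucleoplasm than in SRSF7 chromatin, against 15.3% of the 717 clusters compared in the whole series. In SRSF3 1 of 8, cluster C, was higher in nucleoplasm than in chromatin, against 38.1% of 1547. Between the proteins, 3 of 8 (A, F and I) were higher in SRSF7 nucleoplasm than in SRSF3 nucleoplasm, against 13.6% of 865. In chromatin 1 of 8, again C, was higher in SRSF7 than in SRSF3, against 31.5% of 1071. Clusters of 1 gene share their RNA, so these counts are not independent observations.

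**Figure D4:**
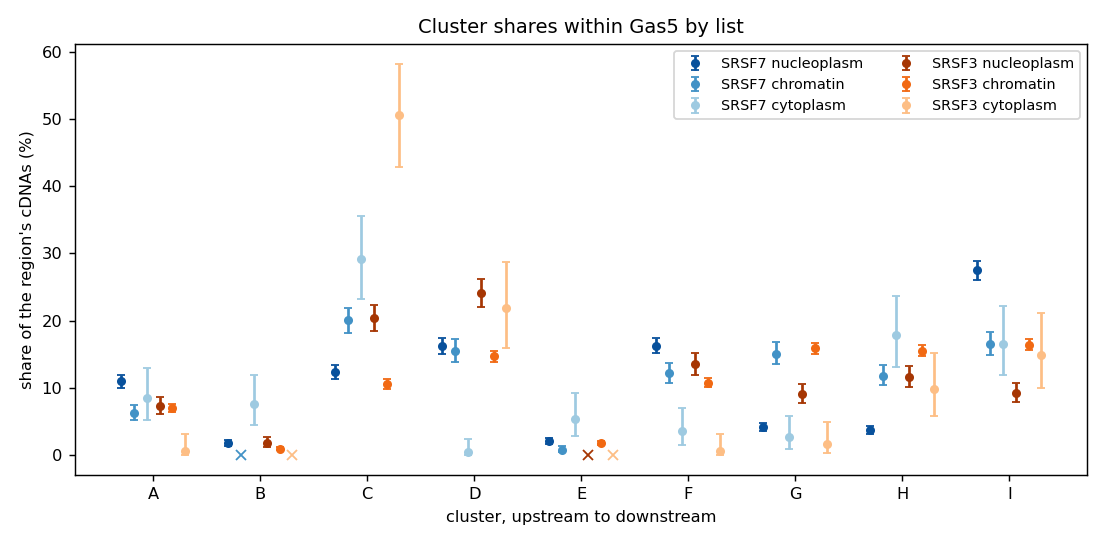
Share of the Gas5 region's cDNAs in each of the clusters A to I, in percent with exact 95% intervals, for the 6 lists, where a cross marks a cluster with no listed position. Cluster C reached 50.6% in SRSF3 cytoplasm, and cluster I reached 27.5% in SRSF7 nucleoplasm.

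The nucleotides used inside a cluster shifted between fractions, most clearly in I. The most upstream part of cluster I, nucleotides 1 to 11 (162968441 to 162968451), held 221 of 304 cDNAs in SRSF7 chromatin, 72.7% (67.3 to 77.6), and 547 of 1283 in SRSF3 chromatin, 42.6% (39.9 to 45.4). Neither nucleoplasm list nor either cytoplasm list held any position there, with 0 of 1134 cDNAs in SRSF7 nucleoplasm and 0 of 159 in SRSF3 nucleoplasm. This part and the downstream part given next were delimited after their values were seen. The most downstream part, nucleotides 28 to 47, held 65.0% in SRSF7 nucleoplasm, 17.4% in SRSF7 chromatin and all 37 cDNAs in SRSF7 cytoplasm. In SRSF3 it held 44.0% in nucleoplasm, 11.4% in chromatin and 22 of 26 cDNAs in cytoplasm. The median cDNA accordingly lay at nucleotide 32 in SRSF7 nucleoplasm against 4 in SRSF7 chromatin, and at 27 in SRSF3 nucleoplasm against 16 in SRSF3 chromatin.

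Single tall nucleotides of these parts give the same counts in more detail and are no further support for the split. Position 162968442 had 87 cDNAs in SRSF7 chromatin and 142 in SRSF3 chromatin and was in no other list. At 162968473 there were 143 cDNAs in SRSF7 nucleoplasm, 2 in SRSF7 chromatin, 4 in SRSF7 cytoplasm, 12 in SRSF3 nucleoplasm, 19 in SRSF3 chromatin and 4 in SRSF3 cytoplasm. The first was the tallest nucleotide of Gas5 in SRSF7 chromatin, and the second the tallest in SRSF7 nucleoplasm. At the second, the SRSF3 counts came from 1709 cDNAs of the region in nucleoplasm and 7813 in chromatin. The tallest in SRSF3 chromatin, 162968441 with 160 cDNAs, stood in that list alone. Position 162968465 joined the nuclear lists in another way, with 99 cDNAs in SRSF7 nucleoplasm, 23 in SRSF3 nucleoplasm and 140 in SRSF3 chromatin, but none listed in SRSF7 chromatin.

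**Figure D5:**
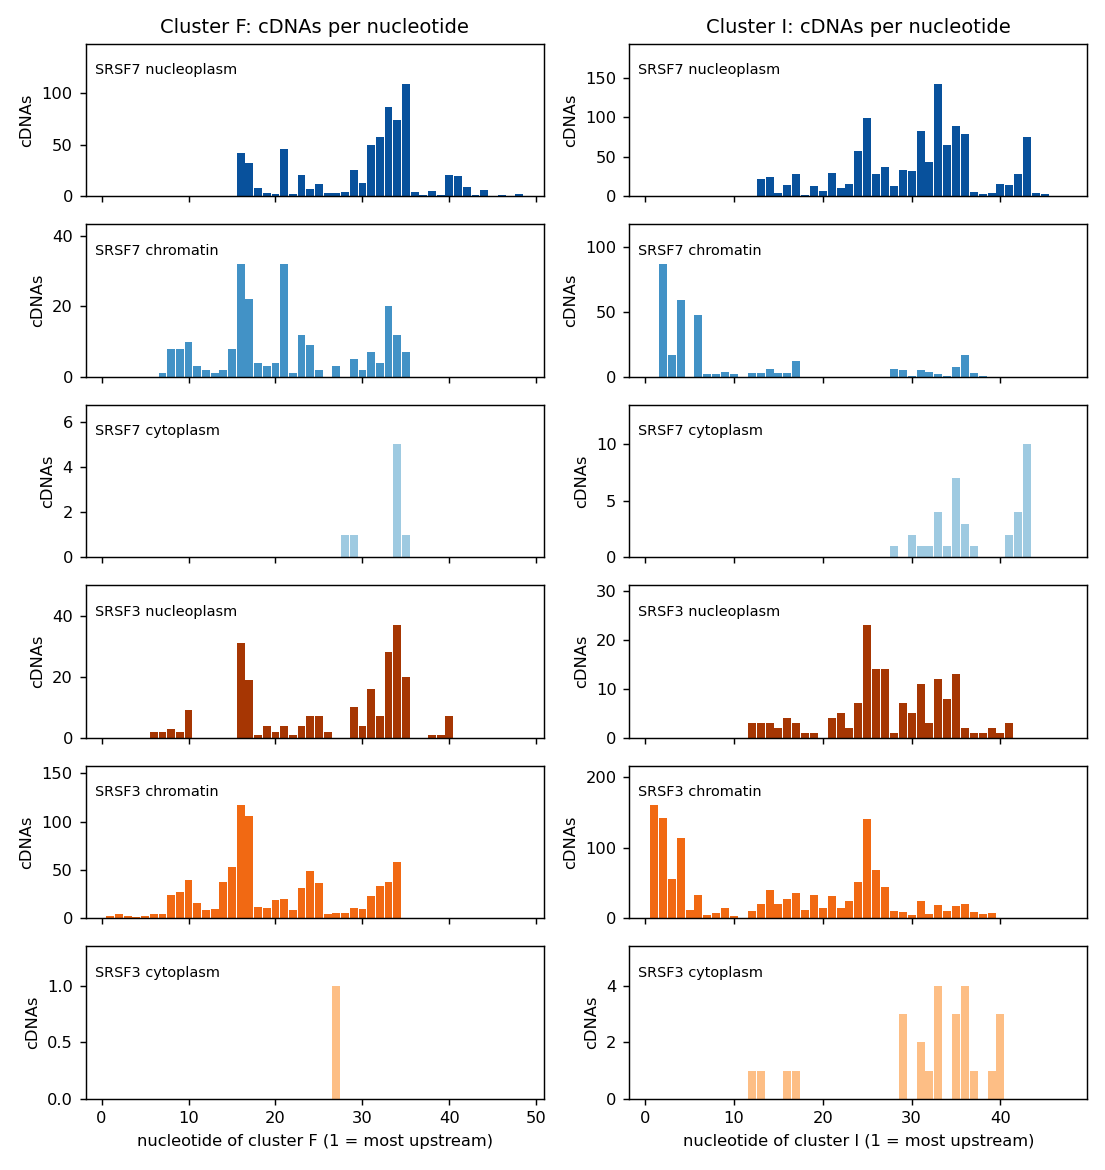
cDNAs per nucleotide of clusters F (left) and I (right) in the 6 lists, numbered from the most upstream nucleotide of the cluster, with a separate vertical scale in each panel. In cluster I nucleotides 1 to 11 carry cDNAs in the 2 chromatin lists only, and in cluster F the tallest nucleotide is 16 in both chromatin lists (in SRSF7 level with nucleotide 21, at 32 cDNAs each) and 35 and 34 in the nucleoplasm lists of SRSF7 and SRSF3.

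Cluster F moved the same way. The upstream 24 of its 48 nucleotides held 24.3% of the cluster's cDNAs in SRSF7 nucleoplasm (21.1 to 27.7) against 72.3% in SRSF7 chromatin (66 to 78.1), and 39.4% in SRSF3 nucleoplasm (33.0 to 46.0) against 72.9% in SRSF3 chromatin (69.7 to 75.8). The tallest nucleotide of F was 162967530 in SRSF7 nucleoplasm, with 109 cDNAs, against 7 in SRSF7 chromatin. Over the clusters with at least 10 cDNAs in both lists, the share of the cluster's upstream side, cut at its middle, was lower in nucleoplasm than in chromatin in 6 of 8 for SRSF7 and in 6 of 8 for SRSF3, with G and H the exceptions in both. For H, 121 nt wide, this depended on the cut. Its median cDNA lay at nucleotide 39 in SRSF7 nucleoplasm against 18 in SRSF7 chromatin, a downstream shift as in F. In SRSF3 the medians of H were 35 in nucleoplasm and 36 in chromatin. In cluster C this share was 26.4% in SRSF7 nucleoplasm against 29.3% in SRSF7 chromatin, and 29.0% in SRSF3 nucleoplasm against 30.4% in SRSF3 chromatin, with overlapping intervals. For cluster D it was 48% in SRSF7 nucleoplasm against 71.0% in SRSF7 chromatin, and 53.4% in SRSF3 nucleoplasm against 58.5% in SRSF3 chromatin.

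In SRSF7 cytoplasm the median cDNA of cluster H, at nucleotide 67, lay further downstream than in the other lists. Nucleotides 66 to 80 (162968260 to 162968274) held 33 of the 40 cDNAs of H in that list and had no listed position in the 5 others. This part too was delimited after its values were seen, so the absence from the other lists is no test. The other 7 cDNAs of SRSF7 cytoplasm began at nucleotide 62, where SRSF7 chromatin listed 12, so the stack was not apart from the nuclear signal. The tallest nucleotide of Gas5 in SRSF7 cytoplasm, 162968261, lay there with 12 cDNAs. In SRSF7 and SRSF3 chromatin the tallest nucleotide of H was 162968212, with 64 and 137 cDNAs. SRSF7 chromatin also listed single cDNAs between nucleotides 106 and 121 of H, downstream of every SRSF7 cytoplasm position there.

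Much of the signal lay at nucleotides shared by several lists. Of the 660 distinct positions, 308 were in 1 list only and held 5.34% of the cDNAs, and 19 were in all 6 lists and held 15.6%. SRSF3 chromatin, the longest list, alone held 184 of the 308. These 19 lay in cluster C (13) and cluster I (6). The tallest nucleotide over all lists, 162965979 in C, had 88 cDNAs in SRSF7 nucleoplasm, 56 in SRSF7 chromatin and 6 in SRSF7 cytoplasm. In SRSF3 it had 62 in nucleoplasm, 106 in chromatin and 13 in cytoplasm. Its neighbour 162965993 had 42, 85 and 10 in SRSF7 nucleoplasm, chromatin and cytoplasm, and 29, 120 and 15 in the same SRSF3 fractions. Both nucleotides were thus listed for each protein in each fraction.

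Lists were also compared in pairs. At the same nucleotide, SRSF7 nucleoplasm shared 54.5% of its positions with SRSF3 nucleoplasm and 40.3% with SRSF7 chromatin, while 81.7% of SRSF3 nucleoplasm and 66.7% of SRSF7 chromatin positions were shared in return. SRSF7 chromatin shared 85.4% of its positions with SRSF3 chromatin, which shared 35.8% of its own. Within 5 nt, 98.7% of SRSF3 nucleoplasm positions lay near a SRSF3 chromatin position, and 100% of SRSF3 cytoplasm positions did. For SRSF7 the values against its chromatin list were 63.6% for nucleoplasm and 71.7% for cytoplasm. The lists differ in length, so these shares describe the lists and give no order of affinity. The same shares over the whole series are not given, so none is shown to be particular to Gas5. By cluster makeup, 87.5% of the Gas5 distribution was common to SRSF7 and SRSF3 chromatin, 70.4% to SRSF7 and SRSF3 nucleoplasm, and 57.2% to the 2 cytoplasm lists.

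Other loci with a like pattern over the 6 lists were found by the distance between log2 shares, each locus centred on its own mean, among 1937 other loci with at least 200 cDNAs. The nearest lay on chromosome 4, minus strand, between 116821372 and 116855184, with a distance of 0.31 against a median of 5.54. Its shares were 0.289%, 0.141% and 0.0139% in SRSF7 nucleoplasm, chromatin and cytoplasm, and 0.105%, 0.104% and 0.0136% in the SRSF3 lists in the same order. The order of its 6 shares thus followed that of Gas5 except in SRSF7 and SRSF3 cytoplasm. Next, at 0.78 each, came the plus strands of chromosome 19 at 8790307 to 8801161, chromosome 11 at 62416375 to 62418258 and chromosome 2 at 130100386 to 130104628. A locus on chromosome 18 was the fifth, at 0.90. The files name no genes, so these loci are given by position only.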

How the data were processed

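The authors deposited 1 list per group of pooled replicates, per the sample descriptions. Each entry is 1 nt wide with a signed whole number, entered here as a score and read as the cDNA count with the strand as its sign, an inference from the deposited values. Positions passed a false discovery rate below 0.05 with 100 permutations and a 15 nt neighbourhood, per the file headers. Track names of SRSF7 alone add regionAsOne, although descriptions say separately, so calling may differ between proteins. The build is mm9, per the submitters' processing notes. No source used here gives the aligner or how duplicates were removed. Coordinates are 1-based.

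Intervals are Clopper-Pearson for shares and, for ratios, exact binomial given the summed count. The call of ratios was tested only on simulated counts with planted changes and counting error, without replicate spread or the authors' threshold. Named were the 5 tallest positions of each list, in part, clusters with at least 5% in any list, and the 5 nearest loci (0.5 added to counts). The region and rules were chosen with earlier results of these data known. Versions were scipy 1.17.1, pandas 2.3.3, matplotlib 3.10.9, numpy 2.4.6 and Python 3.11.15.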

Additional observations from a re-analysis of the deposited data

Results flagged for a closer look

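As shares of the cDNAs of the region, 2 clusters moved opposite ways in the 2 proteins between fractions, with intervals on opposite sides of 1. The share of cluster I in the region's cDNAs in nucleoplasm was 1.66 times that in chromatin for SRSF7 (1.47 to 1.90) and 0.567 times for SRSF3 (0.477 to 0.669). For nucleoplasm over cytoplasm the ratios of cluster I were 1.66 for SRSF7 (1.19 to 2.36) and 0.623 for SRSF3 (0.410 to 0.982). Cluster C gave 0.618 for SRSF7 nucleoplasm over chromatin (0.540 to 0.709) and 1.93 for SRSF3 (1.69 to 2.19). The SRSF7 ratio was 2.94 times the SRSF3 ratio for nucleoplasm over chromatin in cluster I (2.42 to 3.57) and 0.321 times in cluster C (0.272 to 0.379). These intervals cover counting error, and the difference was not tested over replicates, which were pooled. Shares of 1 region add up to a fixed whole. As shares of the whole list, cluster C nucleoplasm over chromatin was 1.25 for SRSF7 and 2.36 for SRSF3, and cluster I nucleoplasm over cytoplasm was 40.9 and 4.98, so these pairs moved the same way. Cluster I nucleoplasm over chromatin still moved opposite ways on that scale, at 3.37 for SRSF7 and 0.695 for SRSF3.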

How the results depend on the processing

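No paired analysis was possible because the replicates were pooled before deposit, and for the same reason no replicate could be left out. Of 45 ratios of Gas5 shares under 5 alternatives, 35 kept their direction and their side of the 2-fold call. Counting positions in place of cDNAs gave 0.963 for SRSF7 nucleoplasm over chromatin (0.810 to 1.15) and 0.511 for SRSF3 chromatin over cytoplasm (0.396 to 0.670). Both turned, but the first interval includes 1. Counting positions also gave 1.88 for SRSF3 nucleoplasm over cytoplasm and 1.25 for SRSF7 over SRSF3 nucleoplasm, both short of the call. It gave 3.68 for SRSF3 nucleoplasm over chromatin and 4.79 for SRSF7 over SRSF3 chromatin, both past the call. With positions of at least 3 cDNAs, SRSF3 nucleoplasm over chromatin was 0.855 (0.809 to 0.903) and SRSF7 over SRSF3 cytoplasm 1.07 (0.834 to 1.38). Both turned, but the second interval includes 1, as did that of the main ratio. In this setting SRSF7 nucleoplasm over chromatin was 2.90, past the call. Without the mitochondrial genome and the 10 highest other loci, SRSF7 over SRSF3 chromatin was 2.15, past the call. The cause of these changes was not tested. Of the 12 alternative values of the 6 shares, 10 lay outside the interval of the share, and of 12 for the chance of a shared nucleotide 8 moved by over 1.5 times, among them all 6 in windows of 10 nt. Leaving out the tallest position, in cluster C, with 2 nt on either side, or the tallest cluster, I, changed no call and no direction of the 9 ratios. Gaps of up to 10 and 100 nt gave 44 and 18 clusters in place of 32. Loci joined at 1000 nt gave 12.6% called in place of 20.8% for SRSF3 chromatin over cytoplasm, and the other 8 percentages stayed within 1.5 times. The small cytoplasmic counts, 223 and 174 cDNAs, limit every statement on clusters there.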

Other observations

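Beyond cluster I the region was almost empty. SRSF3 chromatin listed 40 positions there with 53 cDNAs, reaching 162970711, SRSF7 cytoplasm listed 1 position with 2 cDNAs, and the 4 other lists had none. Positions in both chromatin lists and in no other list numbered 29, of which 8 lay in cluster I. They held 292 cDNAs in SRSF7 chromatin and 619 in SRSF3 chromatin. The reverse pattern, both nucleoplasm lists and neither chromatin list, had 14 positions with 94 cDNAs in SRSF7 nucleoplasm and 35 in SRSF3 nucleoplasm. The lists differ in length and the same counts over the whole series are not given. These numbers are therefore not shown to be particular to Gas5.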
